A study of Homo sapiens with 12 samples.

Results

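The enzymes that build cholesterol and fatty acids, with the proteins that set their level, were followed in the human bladder cancer line UM-UC-3. The set held 34 genes, taken by name from the array, where they had 40 of 46713 probes. All 34 were among the 13528 genes tested, a gene being tested when a probe of it was detected on at least 3 of 12 arrays. They comprised 4 genes of acetyl-CoA supply, 6 enzymes of the mevalonate and isoprenoid steps, 11 enzymes between squalene and cholesterol, 7 enzymes of fatty acid and glycerolipid synthesis and 6 regulators.

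The cells belonged to 4 groups of 3 arrays, namely a miR-101 precursor, an siRNA against EZH2, a control siRNA and a control microRNA precursor. Each was given at 50 nM for 72 h, and all 12 samples were of the same line. The series title names the question, repression by miR-101 of EZH2, a Polycomb enzyme that methylates histone H3. The labels call the transfections triplicate without saying whether cultures were separate, so the p-values below reflect only array-to-array spread, part of which may be technical. One line, one dose and one time were examined, and the sources used here give no sequence for either control RNA. Since RNA was measured in bulk, fewer cells expressing a gene and less RNA per cell cannot be told apart.

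Cholesterol is made from acetyl-CoA through mevalonate, isoprenoid diphosphates, squalene and lanosterol. Fatty acids are made from the same acetyl-CoA by carboxylation, chain building, elongation and desaturation. The transcription factors SREBP1 and SREBP2, encoded by SREBF1 and SREBF2, switch on genes of both routes. When membrane sterol is low, the escort protein SCAP carries them from the endoplasmic reticulum to the Golgi for cleavage, and INSIG1 and INSIG2 hold SCAP back when sterol is high. SREBP2 is known mainly for the sterol genes and the main SREBP1 isoforms for the fatty acid genes.

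The mature strand expected from a miR-101 precursor is hsa-miR-101-3p, shown for its seed, bases 2 to 8, which are in capitals. RefSeq (GRCh38.p14) gives one of its loci as chr9:4850345-4850365, plus strand. The labels do not name the strand used.
hsa-miR-101-3p: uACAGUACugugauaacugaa

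Promoters are shown for the 5 genes with the largest miR-101 changes over the control precursor, which were picked by that comparison alone. The promoter of SREBF2 is added because it alone among the members carried a sterol regulatory element of the searched form. Each run covers 250 bases before to 50 after a RefSeq start site (GRCh38.p14), read on the gene's strand. Capitals mark CCAAT boxes on either strand (CCAAT or ATTGG) and the sterol regulatory element (TCACNCCAC on either strand). SC5D lies at chr11:121292521-121292820 on the plus strand, IDI1 at chr10:1048837-1049136 on the minus strand and MSMO1 at chr4:165327419-165327718 on the plus strand. HMGCS1 lies at chr5:43313363-43313662 on the minus strand, NSDHL at chrX:152830813-152831112 on the plus strand and SREBF2 at chr22:41832855-41833154 on the plus strand.
SC5D: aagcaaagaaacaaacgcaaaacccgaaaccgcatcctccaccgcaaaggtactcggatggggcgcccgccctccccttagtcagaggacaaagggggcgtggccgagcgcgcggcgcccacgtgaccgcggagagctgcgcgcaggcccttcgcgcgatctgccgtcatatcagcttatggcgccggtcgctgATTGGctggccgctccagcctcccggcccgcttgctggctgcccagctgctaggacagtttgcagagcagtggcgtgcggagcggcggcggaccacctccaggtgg
IDI1: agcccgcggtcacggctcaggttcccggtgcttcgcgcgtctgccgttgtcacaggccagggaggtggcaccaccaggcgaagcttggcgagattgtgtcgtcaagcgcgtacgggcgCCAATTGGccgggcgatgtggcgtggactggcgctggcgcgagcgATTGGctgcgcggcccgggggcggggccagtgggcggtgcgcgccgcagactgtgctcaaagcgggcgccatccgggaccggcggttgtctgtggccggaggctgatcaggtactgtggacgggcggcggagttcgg
MSMO1: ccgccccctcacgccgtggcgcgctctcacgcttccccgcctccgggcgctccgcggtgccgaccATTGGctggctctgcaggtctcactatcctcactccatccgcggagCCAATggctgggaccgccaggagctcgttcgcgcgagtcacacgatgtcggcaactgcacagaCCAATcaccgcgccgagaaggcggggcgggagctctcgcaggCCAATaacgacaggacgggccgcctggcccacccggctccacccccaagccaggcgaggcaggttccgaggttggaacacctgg
HMGCS1: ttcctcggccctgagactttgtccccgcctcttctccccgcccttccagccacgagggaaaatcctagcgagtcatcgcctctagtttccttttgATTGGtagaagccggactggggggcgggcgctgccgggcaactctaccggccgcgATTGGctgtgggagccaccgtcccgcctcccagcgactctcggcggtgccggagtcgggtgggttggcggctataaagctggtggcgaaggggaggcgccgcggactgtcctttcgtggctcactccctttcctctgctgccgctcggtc
NSDHL: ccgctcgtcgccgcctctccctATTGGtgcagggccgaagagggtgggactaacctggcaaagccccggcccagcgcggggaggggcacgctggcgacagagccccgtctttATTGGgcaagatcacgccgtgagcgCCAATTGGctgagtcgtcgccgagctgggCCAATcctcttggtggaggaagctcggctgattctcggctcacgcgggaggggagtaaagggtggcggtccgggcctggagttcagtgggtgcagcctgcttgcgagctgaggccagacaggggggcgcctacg
SREBF2: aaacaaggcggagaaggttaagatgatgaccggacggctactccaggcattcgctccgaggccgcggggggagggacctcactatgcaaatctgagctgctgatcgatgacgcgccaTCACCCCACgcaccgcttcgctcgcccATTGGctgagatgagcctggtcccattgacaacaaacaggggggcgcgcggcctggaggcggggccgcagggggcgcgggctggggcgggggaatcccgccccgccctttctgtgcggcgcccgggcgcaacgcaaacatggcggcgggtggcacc

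The sterol regulatory element was found in the SREBF2 window only, 133 bases before the start site, among 30 member genes with a promoter in the table. ACAT2, FDFT1, FASN and SQLE had no window to search. Only a single form of 9 letters was searched in 300 bases, so its absence does not show that a gene lacks SREBP sites. Of all 35116 promoters 1.13% held it. A palindromic E-box (TCACGTGA), another sequence that SREBPs bind, was found in the INSIG1 window among the members and in 0.98% of all promoters. CCAAT boxes, the sites of the SREBP partner NF-Y, were present for 21 of the 30 member genes (70.0%) and for 39.7% of all 27305 genes. GC boxes (GGGCGG on either strand), the sites of SP1, were present for 29 of 30 (96.7%) and for 48.3% of all genes. NSDHL held 5 CCAAT boxes, a pair of which overlap in CCAATTGG, and MSMO1 held 4. These shares count a gene if any of its windows matched, and all genes include those not detected here. By window, CCAAT boxes were in 58.1% of 43 member promoters and 34.6% of all promoters. These matches describe letters in short windows and do not show binding. GC-rich promoters hold GC boxes more often, and neither base composition nor expression was matched here. Of the other start sites of the printed genes, the second of SC5D and of IDI1 held CCAAT boxes, while the third of IDI1 and the first of HMGCS1 held none.

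Arrays detected 15453 to 16377 probes, and their mean signals ran from 304.0 units (miR-101 replicate 2) to 497.1 units (EZH2 siRNA replicate 1). The miR-101 and control precursor arrays shared a chip and both siRNA groups shared the other, with treated arrays at positions D to F and controls at A to C. Each treatment was therefore compared with its control within a chip, but position cannot be told apart from treatment, and chip cannot be told apart from control type. EZH2 was lower with both treatments, at 53.8% of the control precursor level with miR-101 (limma adjusted p = 0.000300) and 43.0% of the control siRNA level with EZH2 siRNA (adjusted p = 0.000432). Among epithelial markers, keratins KRT8 and KRT18 were detected on all 12 arrays, KRT7 on 5, CDH1 on 2 and KRT19 and EPCAM on 0. Of 8 urothelial markers, UPK1B and PPARG were detected on all 12, UPK1A on 1 and UPK2, UPK3A, GATA3, KRT5 and KRT20 on 0. Group means of UPK1B lay at 6.87 to 6.92 on a normalized log2 scale, near the 6.78 median of undetected listed probes. Mesenchymal VIM, CDH2, ZEB1 and SPARC were detected on all 12 and the fifth of that list, FN1, on 0. Of 6 leukocyte markers 5 were detected on 0 arrays and PTPRC on 5. Of 5 adipocyte markers CIDEC was detected on 11, FABP4 on 8 and ADIPOQ, PLIN1 and LEP on 0. Of 5 hepatocyte markers ALB and APOA1 were detected on 1 array each and APOA2, CYP7A1 and TTR on 0. Endothelial PECAM1 was detected on 8, KDR on 1, and VWF and CDH5 on 0. Steroidogenic CYP11A1 was detected on 10, and CYP17A1, STAR and HSD3B2 on 0. Group means of PTPRC, CIDEC, FABP4, PECAM1 and CYP11A1 lay between 6.83 and 6.91, also near 6.78.

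With the miR-101 precursor, the sterol enzymes were higher than with the control precursor. Of the 34 genes 18 rose and 2 fell at an adjusted p under 0.05 (limma, Benjamini-Hochberg over 13528 genes), where 23.6% of all genes rose and 21.3% fell. The rising share was 52.9%. Their median log2 change was 0.30, against 0.00 for all genes tested. Of the 17 enzymes from HMGCS1 to DHCR7, 12 rose and TM7SF2 fell, with a median of 0.57. Of the 7 fatty acid genes 2 were higher. The rise of the sterol enzymes was also seen against the other control: 10 of these 17 were higher and TM7SF2 was lower than with control siRNA, where 22.9% of all genes were higher and 20.2% lower. That further comparison shares the miR-101 arrays and crosses the chips. After median scaling in place of quantile normalization it had 1655 of all genes higher and 2686 lower, against 3098 and 2737.

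**Figure D1:**
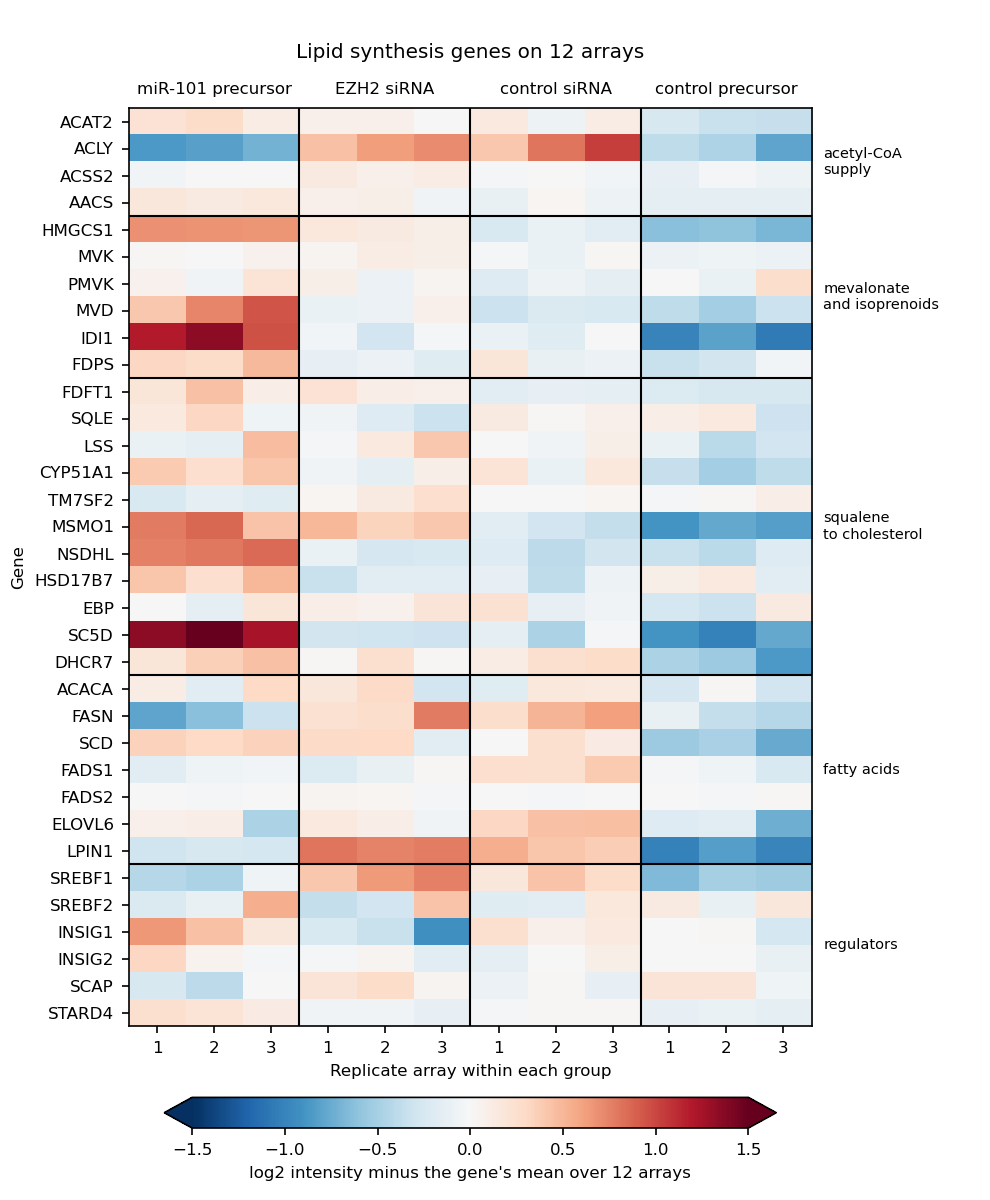
Each cell is the normalized log2 intensity of a gene on 1 array minus the mean of that gene over 12 arrays, with 3 arrays per group and genes grouped by step. The miR-101 columns are highest for most genes in the blocks from HMGCS1 to DHCR7, with SC5D and IDI1 above all others. EZH2 siRNA has the highest mean there for MVK, LSS, EBP and TM7SF2, and miR-101 the lowest for TM7SF2. The control precursor columns are lowest for most genes.

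The first committed steps rose in part. HMGCS1, the cytosolic synthase that makes HMG-CoA, read 12.26, 12.25 and 12.24 on a normalized log2 scale on the miR-101 arrays, 11.74, 11.71 and 11.67 with EZH2 siRNA, 11.35, 11.48 and 11.40 with control siRNA and 10.95, 10.97 and 10.89 with the control precursor. The 4 groups did not overlap, and miR-101 stood highest. The miR-101 change over the control precursor was 1.31 ± 0.0354 (SE), or 2.49-fold (adjusted p = 1.72e-08). IDI1, the isomerase that makes the reactive isoprenoid unit, read 10.33, 10.47 and 10.09 with miR-101, 9.09, 8.84 and 9.12 with EZH2 siRNA, 9.03, 8.96 and 9.13 with control siRNA and 8.14, 8.34 and 8.08 with the control precursor. Here the EZH2 siRNA and control siRNA arrays overlapped, between high miR-101 and low control precursor arrays. The miR-101 change was 2.12 ± 0.112 (SE), or 4.33-fold (adjusted p = 6.33e-07). It was 1.26 over control siRNA (adjusted p = 1.82e-05).

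MVD, which decarboxylates mevalonate diphosphate, read 7.99, 8.32 and 8.53 with miR-101, 7.49, 7.50 and 7.67 with EZH2 siRNA, 7.26, 7.37 and 7.36 with control siRNA and 7.21, 7.08 and 7.27 with the control precursor. All miR-101 arrays lay above all others, while the control groups overlapped. The miR-101 change was 1.09 over the control precursor (adjusted p = 5.47e-05) and 0.95 over control siRNA (adjusted p = 0.000150). FDPS, which makes farnesyl diphosphate, was higher by 0.57 over the control precursor (adjusted p = 0.00110). The kinases between HMG-CoA and MVD moved little: MVK was higher by 0.11 (adjusted p = 0.0181), a call lost when control precursor replicate 1 or 3, or the third miR-101 array, was left out and after median scaling, with 0.06 over control siRNA (adjusted p = 0.166), and PMVK differed by 0.02 (adjusted p = 0.901). ACAT2, the thiolase that joins acetyl-CoA units for this route, was higher by 0.50 (adjusted p = 0.000154), but was not past the threshold after median scaling (0.35, adjusted p = 0.0543) or over control siRNA (0.14, adjusted p = 0.104). AACS, which activates acetoacetate, was higher by 0.29 (adjusted p = 0.000358).

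Between squalene and cholesterol the largest rises lay in the demethylation and desaturation steps. SC5D, the lathosterol desaturase, read 10.70, 10.98 and 10.59 with miR-101, 9.08, 9.06 and 9.05 with EZH2 siRNA, 9.21, 8.88 and 9.32 with control siRNA and 8.46, 8.35 and 8.59 with the control precursor. The miR-101 arrays did not overlap any other group, and the EZH2 siRNA arrays lay within the control siRNA range. Its miR-101 change, the largest of the 34, was 2.29 ± 0.124 (SE), or 4.89-fold (adjusted p = 7.57e-07), and 1.61 over control siRNA (adjusted p = 7.67e-06). MSMO1, the C-4 methylsterol oxidase, read 12.10, 12.18 and 11.74 with miR-101, 11.81, 11.65 and 11.73 with EZH2 siRNA, 11.15, 11.04 and 10.96 with control siRNA and 10.43, 10.55 and 10.49 with the control precursor. Its lowest miR-101 array fell within the EZH2 siRNA range, and both treated groups lay above both controls. The miR-101 change over the control precursor was 1.52 (adjusted p = 2.93e-06).

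NSDHL, the sterol dehydrogenase that acts after MSMO1, read 11.16, 11.21 and 11.26 with miR-101, 10.31, 10.16 and 10.18 with EZH2 siRNA, 10.21, 10.01 and 10.13 with control siRNA and 10.07, 10.01 and 10.22 with the control precursor. Only the miR-101 arrays stood apart, and the other 3 groups overlapped. Its miR-101 change was 1.11 over the control precursor (adjusted p = 1.42e-06) and 1.09 over control siRNA (adjusted p = 1.84e-06). HSD17B7, the partner reductase of that demethylation, was higher by 0.36 (adjusted p = 0.0212) and by 0.58 over control siRNA (adjusted p = 0.00186). The call over the control precursor was lost without control precursor replicate 3 (change 0.27), miR-101 replicate 1 (0.35) or miR-101 replicate 3 (0.31) and after median scaling (0.21, adjusted p = 0.235), and a related pseudogene makes the origin of the HSD17B7 signal uncertain.

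CYP51A1, the lanosterol demethylase, was higher by 0.76 over the control precursor (adjusted p = 8.93e-05) and by 0.27 over control siRNA (adjusted p = 0.0349). DHCR7, which reduces 7-dehydrocholesterol to cholesterol, read 11.08, 11.25 and 11.33 with miR-101, 10.91, 11.13 and 10.91 with EZH2 siRNA, 11.00, 11.13 and 11.17 with control siRNA and 10.42, 10.35 and 10.03 with the control precursor. Only the control precursor arrays were apart from the rest. So DHCR7 was higher by 0.96 over the control precursor (adjusted p = 8.52e-05), and its difference from control siRNA was 0.12 (95% interval -0.12 to 0.37, adjusted p = 0.420). FDFT1, squalene synthase, was higher by 0.47 over the control precursor (adjusted p = 0.000627). TM7SF2, a sterol C-14 reductase, read 7.08, 7.17 and 7.13 with miR-101 and 7.29, 7.32 and 7.40 with the control precursor, a change of -0.21 (adjusted p = 0.00848); it was the one sterol enzyme lower with miR-101. SQLE, the squalene epoxidase, differed by 0.15 (adjusted p = 0.403), EBP, a sterol isomerase, by 0.17 (adjusted p = 0.353) and LSS, lanosterol synthase, by 0.34 (adjusted p = 0.127). The second probe of LSS, detected on all 12 arrays, differed by 0.29 (adjusted p = 7.01e-05 in a limma fit over all probes).

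**Figure D2:**
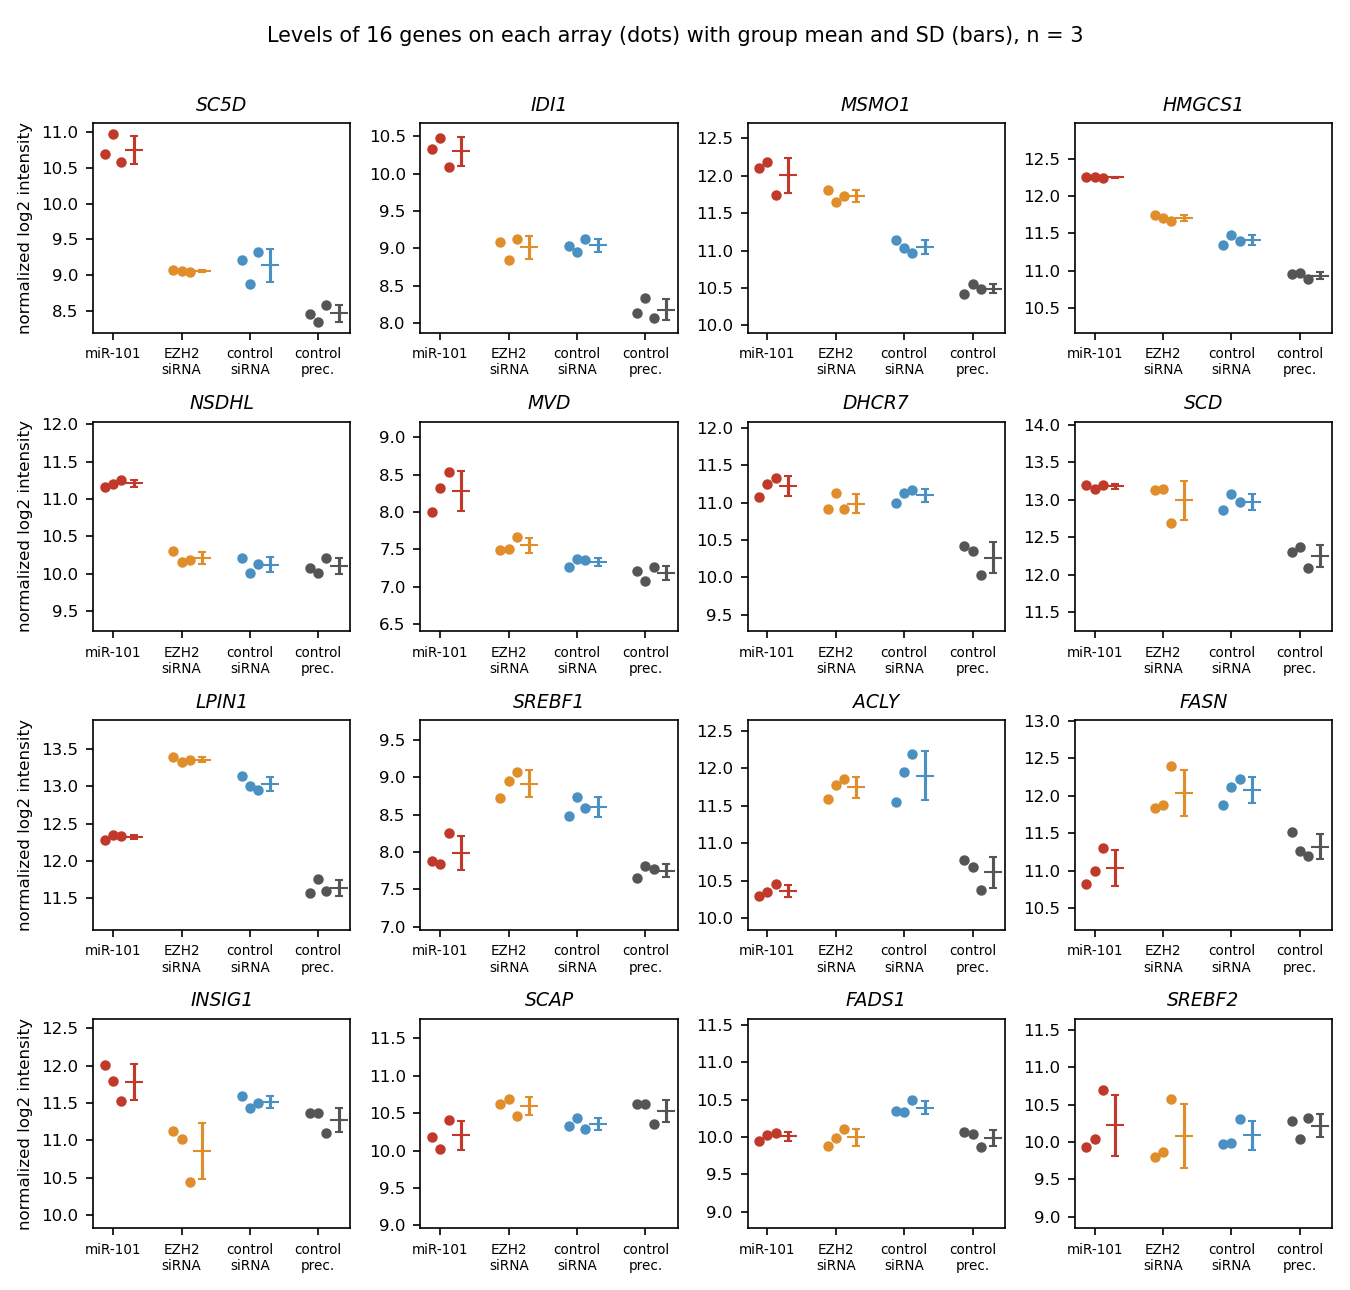
Dots are normalized log2 intensities of 16 genes on each array, by group, and the bars beside them are the group mean and SD (n = 3). SC5D, IDI1, NSDHL and MVD are separated by high miR-101 arrays, LPIN1, SREBF1, ACLY and FASN by high siRNA arrays, and SREBF2 groups overlap.

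The fatty acid genes were set against both controls. Against the control precursor, SCD and LPIN1 were higher, 28.6% of the 7 where 23.6% of all genes were higher, and the other 5 did not pass. Against control siRNA, none was higher (0 also at an unadjusted p under 0.05 in limma) and 4 were lower, namely FASN, FADS1, ELOVL6 and LPIN1, 57.1% of the 7 where 22.9% of all genes were higher and 20.2% lower. Over control siRNA the median of the 7 was -0.38, against 0.25 over the control precursor. LPIN1, the phosphatidate phosphatase of glycerolipid synthesis and a known SREBP target, read 12.29, 12.34 and 12.33 with miR-101, 13.39, 13.33 and 13.35 with EZH2 siRNA, 13.14, 13.01 and 12.95 with control siRNA and 11.57, 11.76 and 11.59 with the control precursor. None of the 4 groups overlapped, and miR-101 lay between the controls. The miR-101 change was 0.68 over the control precursor (adjusted p = 1.26e-05) and -0.71 over control siRNA (adjusted p = 1.02e-05).

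FASN, the fatty acid synthase, read 10.82, 10.99 and 11.30 with miR-101, 11.84, 11.88 and 12.39 with EZH2 siRNA, 11.88, 12.12 and 12.23 with control siRNA and 11.51, 11.26 and 11.19 with the control precursor. The siRNA groups were high, and the miR-101 and control precursor arrays overlapped. FASN differed by -0.29 over the control precursor (adjusted p = 0.223) and was lower against control siRNA, at -1.04 (adjusted p = 0.00101). Over the control precursor it passed as lower after median scaling (-0.38, adjusted p = 0.0491) and with array weights (-0.45, adjusted p = 0.0184). ACLY, which makes cytosolic acetyl-CoA from citrate, had the same layout: 10.29, 10.34 and 10.45 with miR-101, 11.60, 11.78 and 11.86 with EZH2 siRNA, 11.56, 11.96 and 12.20 with control siRNA and 10.77, 10.69 and 10.37 with the control precursor. Its miR-101 change was -0.25 over the control precursor (adjusted p = 0.241) and -1.54 over control siRNA (adjusted p = 4.58e-05). With array weights ACLY passed as lower over the control precursor, at -0.37 (adjusted p = 0.0490). SCD, the stearoyl-CoA desaturase, was higher by 0.93 over the control precursor (adjusted p = 0.000198) and differed by 0.21 from control siRNA (adjusted p = 0.207).

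ELOVL6, an elongase of saturated chains, differed by 0.27 from the control precursor (adjusted p = 0.262), and without miR-101 replicate 3 by 0.46 (adjusted p = 0.0422). The acyl-CoA desaturase FADS1 differed by 0.02 (adjusted p = 0.867) and ACACA, the carboxylase that makes malonyl-CoA, by 0.25 (adjusted p = 0.283). FADS2 was detected on 4 of 12 arrays, lay between 6.80 and 6.87 and gave no measured change; undetected listed probes had a median of 6.78 on this scale. ACSS2, which makes acetyl-CoA from acetate, differed by 0.05 (adjusted p = 0.185).

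The regulators did not move as a block. INSIG1, the sterol-dependent anchor of SCAP and itself a target of SREBP, read 12.01, 11.80 and 11.53 with miR-101, 11.12, 11.02 and 10.44 with EZH2 siRNA, 11.60, 11.43 and 11.50 with control siRNA and 11.36, 11.37 and 11.09 with the control precursor. The miR-101 arrays lay above the control precursor arrays, and the EZH2 siRNA arrays below the control siRNA arrays. The miR-101 change was 0.50 (adjusted p = 0.0457), and leaving out any array of these groups other than miR-101 replicate 3 lost the call, at changes of 0.39 to 0.55, as did median scaling (0.41, adjusted p = 0.284). Over control siRNA the INSIG1 change was 0.27 (adjusted p = 0.272). A second INSIG1 probe differed by 0.69 (adjusted p = 0.00170 over all probes). SCAP was lower, at -0.32 (adjusted p = 0.0346) although the groups overlapped, at 10.18, 10.03 and 10.41 with miR-101 and 10.62, 10.62 and 10.36 with the control precursor. This call was lost when replicate 1 or 2 of either group was left out, at changes of -0.31 to -0.23, and after median scaling, at -0.36. Over control siRNA it was -0.15 (adjusted p = 0.321). STARD4, a carrier of sterol in the cytosol, was higher by 0.31 near the floor of the scale (adjusted p = 4.25e-05).

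Neither SREBP gene passed the test with miR-101 over the control precursor. SREBF2 read 9.93, 10.04 and 10.69 with miR-101, 9.80, 9.86 and 10.58 with EZH2 siRNA, 9.97, 9.99 and 10.30 with control siRNA and 10.29, 10.04 and 10.33 with the control precursor. All 4 groups overlapped, and the miR-101 difference was 0.00 (95% interval -0.54 to 0.55, adjusted p = 0.990). That interval holds changes as large as those of FDFT1 and HSD17B7, but not those of HMGCS1, IDI1, MSMO1 or SC5D. SREBF1 read 7.88, 7.83 and 8.25 with miR-101, 8.71, 8.95 and 9.07 with EZH2 siRNA, 8.48, 8.74 and 8.58 with control siRNA and 7.65, 7.81 and 7.78 with the control precursor. The siRNA groups were the high ones and overlapped each other. SREBF1 differed by 0.24 from the control precursor (adjusted p = 0.155) and was lower than with control siRNA, at -0.61 (adjusted p = 0.00307). INSIG2 differed by 0.15 from the control precursor (adjusted p = 0.220).

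**Figure D3:**
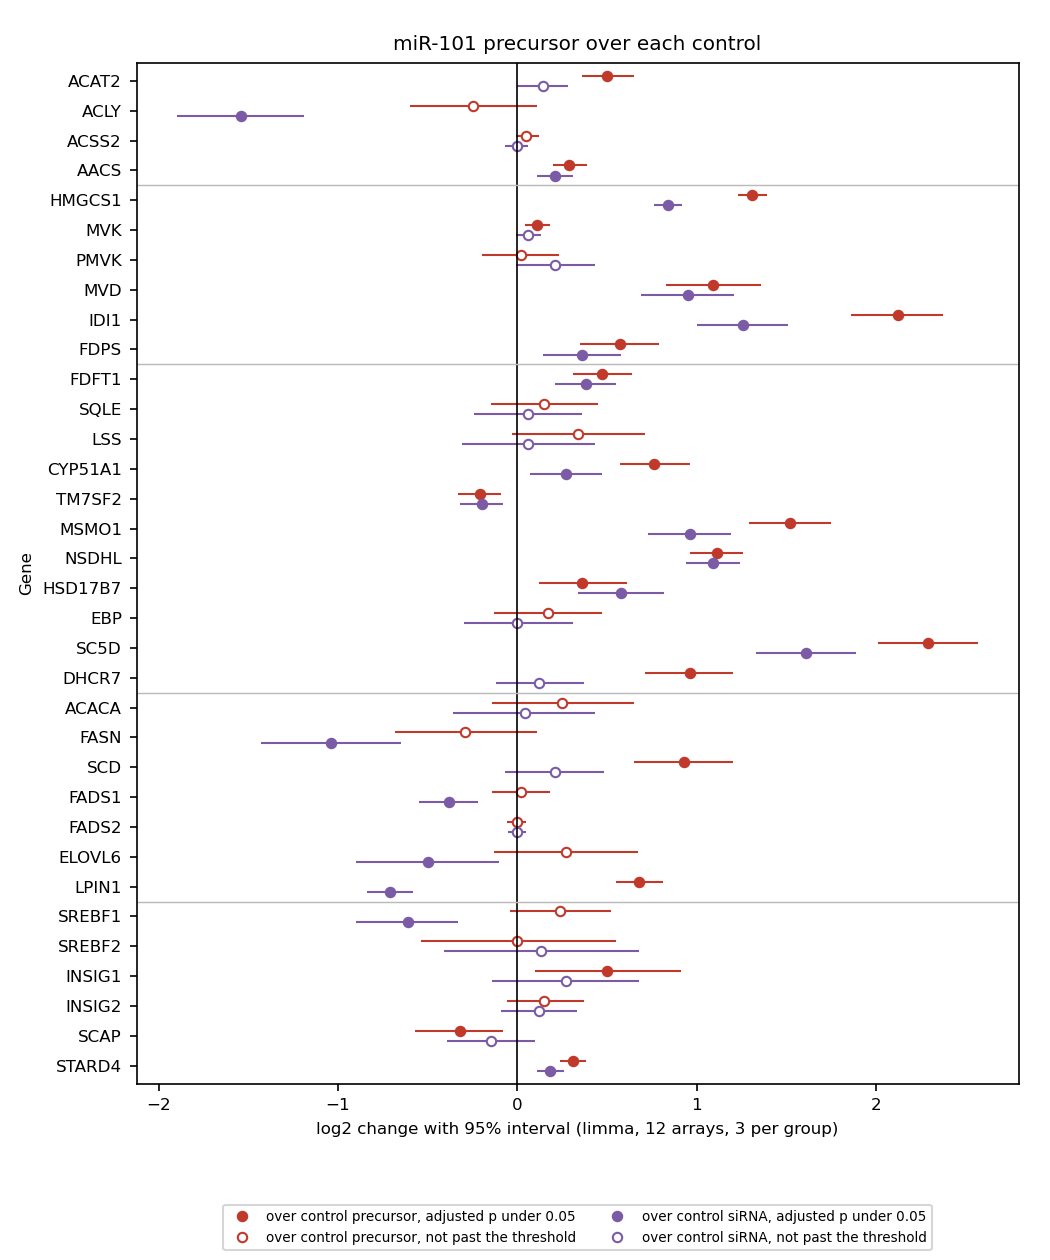
Log2 changes of the 34 genes with miR-101 over the control precursor and over control siRNA, with 95% intervals from limma (3 arrays per group); filled points have an adjusted p under 0.05. From HMGCS1 to NSDHL and SC5D most pairs of points lie on the same side of 0, whereas LPIN1 lies at 0.68 and -0.71. ACLY, FASN, FADS1, ELOVL6 and SREBF1 pass as lower over control siRNA only, and ACLY and FASN lie below 0 over both controls.

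With EZH2 siRNA few of these genes differed from control siRNA. Of the 34, HMGCS1, MSMO1, LPIN1 and ACSS2 rose and FADS1 fell, where 5.85% of all genes rose and 4.64% fell. The shares were 11.8% and 2.94%, and the median change was 0.02. MSMO1 was higher by 0.68 (adjusted p = 0.00323), LPIN1 by 0.33 (adjusted p = 0.00712) and HMGCS1 by 0.29 (adjusted p = 0.000992). ACSS2 was higher by 0.12 (adjusted p = 0.0284), a call lost without EZH2 siRNA replicate 1 or 3 or any control siRNA replicate, at changes of 0.11 to 0.14. FADS1 read 9.89, 9.99 and 10.11 with EZH2 siRNA and 10.35, 10.34 and 10.49 with control siRNA, without overlap, and was lower, at -0.40 (adjusted p = 0.00811). The control precursor arrays averaged 9.99 for FADS1, and over them EZH2 siRNA gave 0.00 (adjusted p = 0.973). After median scaling in place of quantile normalization none of these 5 passed, with adjusted p from 0.0578 (FADS1) to 0.383 (HMGCS1). The changes kept their sign and were 0.58 for MSMO1, 0.25 for LPIN1, 0.22 for HMGCS1, 0.10 for ACSS2 and -0.47 for FADS1. With that scaling 119 of all genes were higher and 268 lower, against 791 and 628.

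INSIG1 had the lowest EZH2 siRNA change of the set at -0.65 with groups that did not overlap, and an adjusted p of 0.0510. Without EZH2 siRNA replicate 1 it was -0.78 (adjusted p = 0.0455), and its second probe differed by -0.09 (adjusted p = 0.859 over all probes). FDFT1 differed by 0.27 (adjusted p = 0.0503) and MVK by 0.11 (adjusted p = 0.0535). SC5D and IDI1, which had the largest miR-101 changes, differed by -0.08 (95% interval -0.36 to 0.20, adjusted p = 0.794) and -0.02 (95% interval -0.27 to 0.23, adjusted p = 0.942) with EZH2 siRNA.

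The responses themselves were compared as the miR-101 change minus the EZH2 siRNA change. The difference was positive for 16 and negative for 2 of the 34, where 17.4% of all genes were positive and 16.4% negative, and the median was 0.37. Of the 17 sterol enzymes 9 had a positive difference, led by SC5D at 2.36 (adjusted p = 1.14e-05), IDI1 at 2.14 (adjusted p = 1.11e-05) and DHCR7 at 1.07 (adjusted p = 0.000641). INSIG1 differed by 1.15 (adjusted p = 0.00663), with a rise on one side and a change of -0.65 that did not pass on the other. The negative differences were SCAP at -0.56 (adjusted p = 0.0185) and TM7SF2 at -0.34 (adjusted p = 0.00667). This contrast uses both controls, which differ from each other for many of these genes.

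Control siRNA set against the control precursor gave calls in one direction. Of the 34 genes 15 were higher with control siRNA and none was lower (limma; 0 lower also at an unadjusted p under 0.05, and 2 lower with array weights), where 14.1% of all genes were higher and 14.2% lower. The higher share was 44.1% and the median 0.21. After median scaling 16 were higher, and the split over all genes became 1675 higher and 540 lower, against 1901 and 1922. Of the 7 fatty acid genes 5 were higher with a median of 0.72, and of the 17 sterol enzymes 6 were higher with a median of 0.17. The largest difference was LPIN1 at 1.39 (adjusted p = 7.25e-07), then ACLY at 1.30 (adjusted p = 0.000330). IDI1 differed by 0.86 (adjusted p = 0.000470), SREBF1 by 0.85 (adjusted p = 0.000908), DHCR7 by 0.83 (adjusted p = 0.000494), ELOVL6 by 0.77 (adjusted p = 0.0105), FASN by 0.76 (adjusted p = 0.0104) and SCD by 0.72 (adjusted p = 0.00203). NSDHL and MVD, by contrast, differed between the controls by 0.02 (adjusted p = 0.863) and 0.14 (adjusted p = 0.412).

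**Figure D4:**
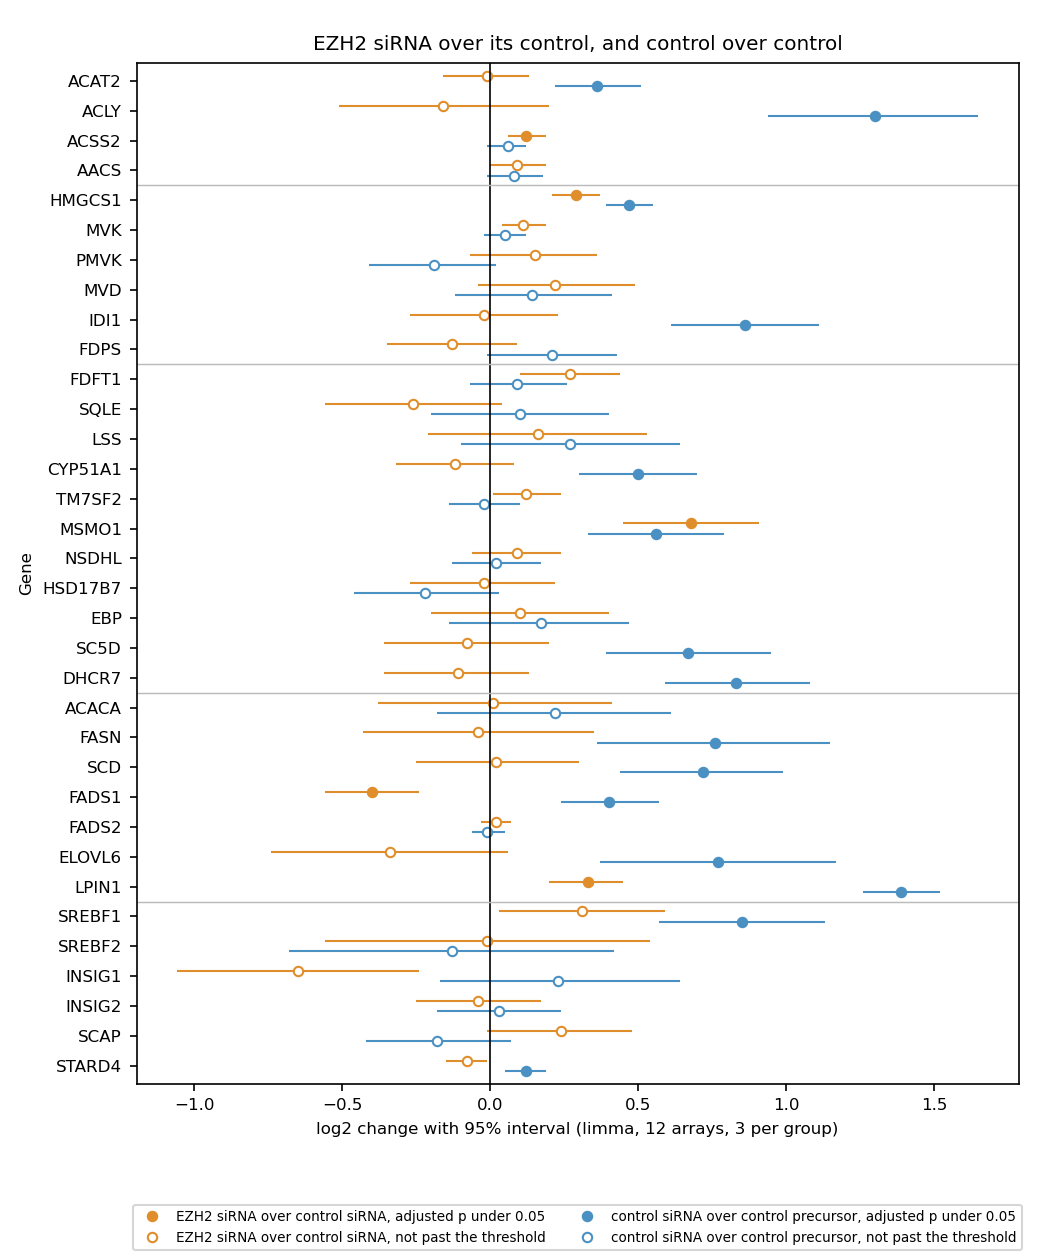
Log2 changes of the 34 genes for EZH2 siRNA over control siRNA and for control siRNA over control precursor, with 95% intervals from limma (3 arrays per group); filled points have an adjusted p under 0.05. The control against control points lie at or above 0 for most genes and reach 1.39 for LPIN1, while EZH2 siRNA points lie between -0.65 and 0.68.

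Over all 4 groups, the control precursor had the lowest mean for 23 of the 34 genes, against 25.9% of all genes tested, and for 12 of these its 3 arrays lay below the other 9, against 9.42% of all genes. The miR-101 group had the highest mean for 21 and the control precursor for 0, against 33.7% and 27.9% of all genes. Taking each array's median deviation from the gene means over the set, miR-101 arrays stood at 0.16, 0.12 and 0.17, EZH2 siRNA arrays at 0.04, 0.07 and 0.03, control siRNA arrays at -0.01, -0.01 and 0.02 and control precursor arrays at -0.20, -0.26 and -0.27. EZH2 siRNA set against the control precursor, across chips, had 17 members higher and none lower (limma; 1 lower at an unadjusted p under 0.05), where 15.1% of all genes were higher and 13.4% lower. After median scaling the split over all genes was 1335 higher and 661 lower, against 2047 and 1818. The difference between the control groups was larger than the EZH2 siRNA change over control siRNA for ACLY, FASN, DHCR7 and SCD, among others. Of the genes that passed with EZH2 siRNA, it was also larger for LPIN1 and HMGCS1. It was smaller for MSMO1 and ACSS2 and about equal in size for FADS1.

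Other genes of lipid metabolism were taken from 8 lists. With miR-101 over the control precursor, 5 of 15 genes of SREBP processing rose (33.3%) and 2 fell (13.3%), where 23.6% of all genes rose and 21.3% fell. MBTPS1, the protease that makes the first cut in SREBPs, averaged 10.19 with miR-101 and 9.19 with the control precursor, a change of 1.00 (adjusted p = 0.000643), and SEC24D, a coat protein for transport from the endoplasmic reticulum, changed by 0.88 (adjusted p = 0.00217). FBXW7, the ubiquitin ligase part that targets nuclear SREBPs, fell by 0.81 (adjusted p = 2.34e-07). Its change was -0.40 over control siRNA (adjusted p = 1.9e-05), since the controls differed by -0.42 (adjusted p = 4.27e-05). With EZH2 siRNA FBXW7 rose by 0.24 over control siRNA (adjusted p = 0.0028). MBTPS1 was also higher by 1.43 in control siRNA over control precursor cells (adjusted p = 0.000183), and against control siRNA none of the 15 was higher with miR-101 (limma; 1 at an unadjusted p under 0.05) and 5 were lower (33.3%, against 20.2% of all genes). SEC24D was then at 0.46 (adjusted p = 0.0520).

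Of 13 genes of sterol uptake and transport 5 rose (38.5%) and 2 fell (15.4%) with miR-101, where 23.6% of all genes rose and 21.3% fell. LIPA, the lysosomal acid lipase that frees cholesterol from esters, averaged 11.67 with miR-101 and 10.19 with the control precursor, a change of 1.48 (adjusted p = 7.21e-06), and NPC2, which passes that cholesterol on in the lysosome, changed by 0.83 (adjusted p = 0.000102). CAV1, caveolin, fell by 1.37 with miR-101 (adjusted p = 9.86e-06) and rose by 0.97 with EZH2 siRNA (adjusted p = 0.000819). The controls differed for CAV1 by -1.13 (adjusted p = 0.000104), and with the other control neither call held: miR-101 over control siRNA was -0.24 (adjusted p = 0.112) and EZH2 siRNA over control precursor -0.16 (adjusted p = 0.350). With EZH2 siRNA 3 of the 13 rose and 3 fell, 23.1% each, where 5.85% of all genes rose and 4.64% fell. Among those that fell were OSBP, an oxysterol-binding protein, at -1.11 (adjusted p = 0.00226) and NPC1, a lysosomal cholesterol transporter, at -0.94 (adjusted p = 0.00713). Over the control precursor EZH2 siRNA gave OSBP -1.02 (adjusted p = 0.00110) but NPC1 0.09 (adjusted p = 0.761), and control siRNA stood 1.02 above the control precursor for NPC1 (adjusted p = 0.00165).

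Among 8 targets of liver X receptors and genes of sterol efflux, 5 rose and 1 fell with miR-101, and 4 rose and none fell with EZH2 siRNA (limma; 0 also at an unadjusted p under 0.05). Among all genes 23.6% rose and 21.3% fell with miR-101, and 5.85% rose and 4.64% fell with EZH2 siRNA. MYLIP, a ubiquitin ligase for lipoprotein receptors, averaged 10.34 with miR-101 and 9.42 with the control precursor (change 0.92, adjusted p = 3.08e-06), and 10.27 with EZH2 siRNA and 9.29 with control siRNA (change 0.98, adjusted p = 3.74e-05). SMPDL3A, a phosphodiesterase, changed by 1.43 with miR-101 (adjusted p = 8.51e-07) and 0.50 with EZH2 siRNA (adjusted p = 0.00411). LPCAT3, a phospholipid acyltransferase, changed by 0.94 with miR-101 (adjusted p = 0.000172) and 0.71 with EZH2 siRNA (adjusted p = 0.00559). NR1H2, a liver X receptor, rose by 0.45 with EZH2 siRNA (adjusted p = 0.0143) and fell by 0.26 with miR-101 (adjusted p = 0.0436). Its control siRNA level was -0.52 from the control precursor (adjusted p = 0.00258). With the other control, EZH2 siRNA gave -0.07 (adjusted p = 0.636) and miR-101 0.26 (adjusted p = 0.0448).

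The remaining lists held calls in both directions with miR-101, as did all genes, of which 23.6% rose and 21.3% fell. Several of their shares lay near these. In the prenyl and dolichol branch 4 of 12 rose (33.3%) and 3 fell (25.0%). GGPS1, which makes geranylgeranyl diphosphate, was at 1.18 (adjusted p = 2.99e-05). PDSS1, a subunit of the enzyme for the ubiquinone side chain, was at -1.33 (adjusted p = 3.48e-06). With EZH2 siRNA none of the 12 passed by limma, where only 5.85% of all genes rose and 4.64% fell. At an unadjusted p under 0.05 in limma, 2 of the 12 were higher and 2 lower. Of 9 genes of NADPH and citrate supply 2 rose and 2 fell (22.2% each), including TKT, transketolase, at -1.11 (adjusted p = 1.39e-06) and IDH1, the cytosolic isocitrate dehydrogenase, at 0.99 (adjusted p = 0.000622), which over control siRNA was 0.23 (adjusted p = 0.286). In glycerolipid and ester synthesis 5 of 17 rose (29.4%) and 4 fell (23.5%), and CDS2, which makes CDP-diacylglycerol, was at -1.30 (adjusted p = 2.96e-05). In fatty acid oxidation 6 of 15 rose and 1 fell, with CPT2, the inner carnitine palmitoyltransferase, at 0.92 (adjusted p = 8.09e-05) and HADH, a hydroxyacyl-CoA dehydrogenase, at -0.92 (adjusted p = 0.000124). Of 10 further elongation and desaturation genes 3 rose and 2 fell, and HACD2, a dehydratase of chain elongation, changed by 0.00 with miR-101 and by -1.14 with EZH2 siRNA (adjusted p = 7.40e-05).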

How the data were processed

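Bead signals of 46713 probes on 12 single-colour arrays were taken from a table the authors deposited as raw intensity values with detection p-values, per the file headers. BeadStudio is named in the submitters' processing notes, and the sources used here state no version. A second deposited table of normalized intensity served as an alternative only. The neqc function of limma 3.58.1 in R 4.3.3 corrected background from the detection p-values, quantile-normalized the arrays and took log2 after an offset of 16, which understates changes of dim genes. Probes with a detection p under 0.05 on 3 or more arrays were kept, named through RefSeq tables of GRCh38.p14, and the probe with the highest mean stood for a gene (13528 genes). A 4-group limma model over all 12 arrays gave two-sided tests with Benjamini-Hochberg adjustment over these genes; the threshold was 0.05. Each adjusted p is from this limma model unless another is named. The number of arrays limits the precision.

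Members and lists were chosen with earlier results of these data known. Every member may be named, and at most 4 genes past the threshold, those with the smallest adjusted p, from each further lipid list and comparison. Samples sharing a replicate number did not deviate together in every pair, so the numbers were not used as pairs. The model was tested on simulated data. Alternatives covered normalization, background, filter, probe choice, weights, variance prior, block, samples fitted, control and single arrays left out.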

Additional observations from a re-analysis of the deposited data

Results flagged for a closer look

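Responses to the 2 treatments differed, by the test of the difference itself (limma, miR-101 change minus EZH2 siRNA change), for 18 of the 34 genes. Among all genes 17.4% had a positive and 16.4% a negative difference. In the sterol route the differences on the log2 scale were 1.02 for HMGCS1 (adjusted p = 1.24e-06), 2.14 for IDI1, 0.87 for MVD (adjusted p = 0.00302), 0.70 for FDPS (adjusted p = 0.00377), 0.89 for CYP51A1 (adjusted p = 0.000557), 0.84 for MSMO1 (adjusted p = 0.00188), 1.01 for NSDHL (adjusted p = 4.43e-05), 2.36 for SC5D, 1.07 for DHCR7 and -0.34 for TM7SF2. In acetyl-CoA supply they were 0.52 for ACAT2 (adjusted p = 0.00181) and 0.20 for AACS (adjusted p = 0.0280). Among the fatty acid genes they were 0.90 for SCD (adjusted p = 0.00295), 0.42 for FADS1 (adjusted p = 0.0114) and 0.35 for LPIN1 (adjusted p = 0.00857). Among the regulators they were 1.15 for INSIG1, 0.39 for STARD4 (adjusted p = 0.000154) and -0.56 for SCAP. Each value uses both controls, so a gap between the controls enters it. FADS1 arrays overlapped, at 9.94, 10.03 and 10.06 with miR-101 and 9.89, 9.99 and 10.11 with EZH2 siRNA. LPIN1 averaged 12.32 with miR-101 and 13.36 with EZH2 siRNA, opposite to its positive difference. DHCR7 averaged 11.22 and 10.98. For NSDHL and MVD, by contrast, the controls differed by 0.02 and 0.14. After median scaling 6 of the 18 no longer passed: ACAT2 at 0.41 (adjusted p = 0.126), AACS at 0.26 (adjusted p = 0.152), FADS1 at 0.48 (adjusted p = 0.0567), LPIN1 at 0.29 (adjusted p = 0.212), INSIG1 at 1.11 (adjusted p = 0.0684) and SCAP at -0.54 (adjusted p = 0.122).

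A second ACSS2 probe carried a signal outside the tested set. It was detected on 0 of 12 arrays, with detection p from 0.0900 to 0.442, yet its raw signal ran from 311.2 to 1611.5 units, and 84 to 118 probes per array combined a signal over 200 with a detection p of 0.05 or more. Its log2 difference was 1.67 for miR-101 over the control precursor and 0.90 for EZH2 siRNA over control siRNA, against 0.05 and 0.12 for the probe that stood for ACSS2. The reason for its detection p was not tested.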

How the results depend on the processing

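Of 2542 single-gene values under other settings, 2416 kept their side of the threshold, 53 passed newly, 60 no longer passed and 13 changed sign where one of both values was past the threshold. Of the 2416, 81 changed sign with neither value past it, 6 of them with the other control, among these ELOVL6 with EZH2 siRNA (-0.34 and 0.43). Of the 13, all but ACSS2 changed with the other control. With control siRNA, miR-101 gave FADS1 -0.38, ELOVL6 -0.50, LPIN1 -0.71 and SREBF1 -0.61, and 12 members higher and 7 lower in place of 18 and 2. With the control precursor, EZH2 siRNA gave ACAT2 0.35, ACLY 1.14, IDI1 0.84, CYP51A1 0.38, SC5D 0.60, DHCR7 0.72, FASN 0.72 and FADS1 0.00, and 17 higher and 0 lower in place of 4 and 1. ACSS2 gave a response difference of 0.77 with no filter on dim probes, through its second probe.

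Counts of members higher with miR-101 (18), with control siRNA over control precursor (15) and in the response difference (16) stayed within 1.5 times under every alternative run; without single arrays they were 15 to 18, 14 to 15 and 15 to 17. The count lower with miR-101 (2) was 1 with no filter, 1 with only the arrays compared, 4 with array weights and 1 to 2 without single arrays. With EZH2 siRNA, the count higher (4) was 0 with median scaling, 8 with array weights and 3 to 4 without single arrays. The count lower (1) was 0 with median scaling, 3 without background correction, 3 with the authors' values, 2 with probes detected on all 12 arrays, 2 with array weights, 2 with the trend and robust variance prior, 2 with only the arrays compared and 1 to 2 without single arrays. Between the controls the count lower (0) was 2 with array weights, and in the response difference (2) it was 1 with median scaling. Counts over all genes moved as well. For EZH2 siRNA they were 119 higher and 268 lower with median scaling and 1538 and 1151 with array weights, against 791 and 628. With array weights 3443 of all genes were lower with miR-101, against 2877, and 2609 between the controls, against 1922. The response difference had 1085 lower with median scaling, against 2225. The cause was not tested.

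With the replicate number as a block, 1 member was lower with miR-101 (SCAP lost its call, adjusted p = 0.0589), 2 were lower with EZH2 siRNA (INSIG1 at an adjusted p of 0.0135) and 17 were higher in the response difference (ELOVL6 at 0.0434). The numbers share no stated batch: correlations of same-numbered deviations were -0.105 to 0.245 for miR-101 with its control and -0.125 to 0.369 for EZH2 siRNA with its control. Without single arrays the calls lost were HSD17B7, INSIG1, MVK and SCAP with miR-101, ACSS2 with EZH2 siRNA, STARD4 between the controls and AACS in the response difference. Near the floor of the scale, changes are understated: FADS2 gave no measured change, while the STARD4 change passed the test.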
